A study of Carica papaya with 15 samples.

Results

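Pulp of "Golden" papaya that had been gassed with ethylene and then left in air for 12 h was compared with pulp of untreated fruit of the same age. T24h fruit had received 100 ppm ethylene in a closed system for 12 h and were sampled at 24 h, which is 12 h after the gas was removed, and C24h fruit had received none. The comparison used 5 of the 15 libraries, T24h A, B and C against C24h A and C, and it left out C24h B, a control library whose expression lay with the treated ones. A, B and C stand for 3 harvests, and each library came from a pool of peeled, seedless fruit of 1 harvest, so the pools were the replicates. Besides these 2 groups there were untreated fruit at 0 h (C0h) and 12 h (C12h) and fruit sampled at the end of the 12 h of ethylene (T12h), with 3 libraries each. No group differed in cultivar or tissue, and all 15 libraries were poly(A) RNA libraries prepared with a stranded kit. The control libraries were thus selected on their expression, and the genes described were chosen by the difference between the same 5 libraries, so the difference between T24h and C24h A and C is given as a description with no test. The tested comparisons were T24h against C24h with all 6 libraries, T12h against C12h, and the difference between these 2 effects.

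Papaya is a climacteric fruit, in which ethylene both starts ripening and is made by the ripening fruit itself. The gas is bound by receptors of the endoplasmic reticulum, which repress the pathway in its absence, and the signal ends in transcription factors that switch on ripening genes. During ripening the pulp softens as enzymes take apart pectin, the galacturonan-rich matrix of the wall, and loosen the xyloglucan that ties cellulose fibrils together, while chlorophyll is lost and carotenoids, sugars and volatile compounds accumulate. Fatty acids for membranes and aroma compounds are built in plastids and broken down in peroxisomes.

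The library labelled C24h B stood close to the library labelled T24h C. The correlation of their log2 values across genes was 0.987. Of the 10711 genes that averaged 50 normalized counts or more in the pair, 3 (0.0280%) differed by over 2-fold. These were LOC110820090, with 77.0 in C24h B and 36.9 in T24h C, LOC110822669 (gene17302), with 337 and 161, and LOC110809916 (gene5947), with 92.0 and 43.8. In the other 104 pairs of libraries the correlation lay between 0.845 and 0.983, and the share of genes that differed by over 2-fold lay between 0.906% and 28.3%. The median chi-square of the C24h B and T24h C counts was 1.44 times that of read sampling alone. In the other 104 pairs it was 3.85 to 45.9 times. The pair thus differed by more than read sampling, which cannot tell whether the RNA came from separate samples. Both libraries were kept as labelled. The reads recovered from the deposited values were 7999275 in C24h B and 10379269 in T24h C, and between 7999275 and 12542678 over all 15 libraries. What lies behind this likeness was not tested, so the main counts and medians at 24 h are given without C24h B and with C24h B. Some are also given with neither C24h B nor T24h C. Where the log2 difference of a gene is given without T24h C, C24h B was left out too.

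A gene was called set apart when all 3 T24h libraries lay above, or all below, both C24h A and C24h C, and the mean log2(normalized counts + 1) differed by more than 1.5. Over the set-apart genes, each library was placed on a scale on which the mean of C24h A and C is 0 and the mean of T24h is 1. C24h B had a median position of 1.01 over the genes higher in T24h and 0.919 over the genes lower in T24h, and 97.4% and 90.5% of these genes had it above 0.5. The T24h libraries, which define the 1, lay at 1.13, 0.856 and 0.988 for A, B and C. The T12h libraries, which took no part in the choice of the genes, lay at 0.787, 0.738 and 0.916. The untreated fruit at 0 h lay at 0.335, 0.0920 and -0.0107, and those at 12 h at 0.00955, 0.224 and -0.0668. All 3 T12h libraries thus lay nearer to T24h, and all 6 C0h and C12h libraries nearer to C24h A and C.

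**Figure D1:**
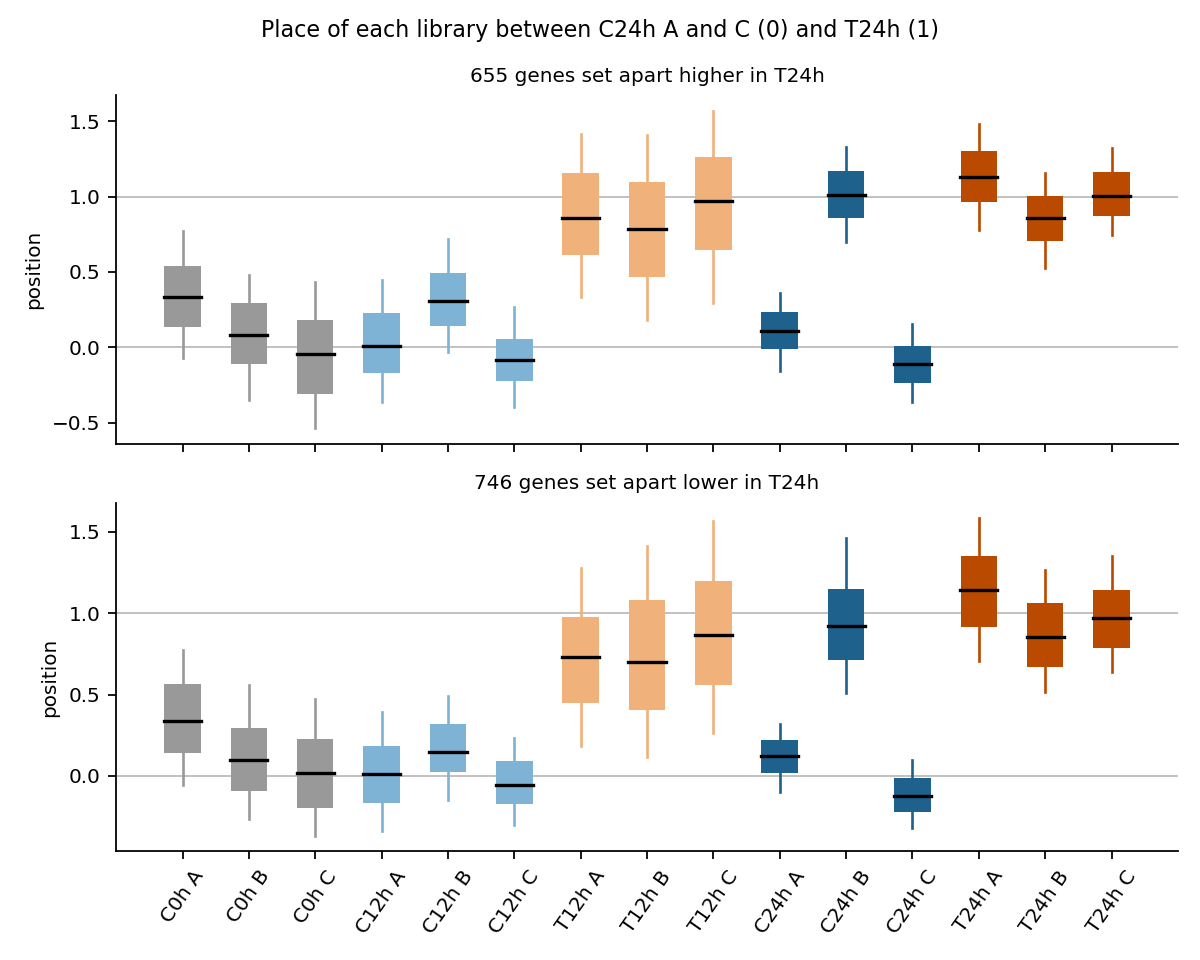
Position of each of the 15 libraries over the 655 genes set apart higher (upper panel) and the 746 set apart lower (lower panel; 0 is the mean of C24h A and C, 1 is the mean of T24h; log2 scale), with boxes from the 25th to the 75th percentile of genes, whiskers from the 10th to the 90th and a line at the median. C24h B, a control library, sits among the treated libraries, while the C0h and C12h libraries have medians between -0.0668 and 0.335 over all 1401 genes.

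Of the 15270 genes that averaged 5 normalized counts or more over the 15 libraries, 1401 (9.17%) were set apart, 655 (4.29%) with higher values in T24h and 746 (4.89%) with lower values. In bulk pulp, fewer cells of a type and less RNA per cell cannot be told apart. The median difference was 2.23 on the log2 scale over the higher genes and -1.92 over the lower ones, and the widest were 8.55 and -5.0. When C24h B was kept, 71 genes (0.465%) and 106 genes (0.694%) met the same criteria, of which 69 and 106 were among those set apart without it. With neither C24h B nor T24h C, the counts were 679 (4.45%) and 804 (5.27%). At the edge of the expression filter, the gene just inside had a mean of 5.001 normalized counts (LOC110813187) and the gene just outside a mean of 4.999 (LOC110810633).

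With all 6 libraries, limma called 0 genes different between C24h and T24h at an adjusted p of 0.05, the lowest adjusted p being 0.182. Unadjusted p-values of 0.05 or lower were found in 2843 genes (18.6%). On the reads recovered from all 15 libraries, edgeR called 0 genes, with an unadjusted p of 0.05 or lower in 2893, and DESeq2 called 421, of which 122 were higher and 299 lower. Without T12h B and T24h B in the count fits, edgeR called 0 genes and DESeq2 called 92. Without T24h C and with C24h B kept, limma called 3 genes, LOC110815967 (log2 change of -1.21), LOC110819044 (1.5) and LOC110819461 (-2.09), each at an adjusted p of 0.0462. The choice of these genes came after their values were known.

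The libraries of 12 h give a test of the same genes on other samples, but its spread was estimated from all 15 libraries, C24h B included. At 12 h, 1791 genes (11.7%) rose and 1884 (12.3%) fell at an adjusted p of 0.05 in limma. Of the 655 genes higher in T24h, 310 (47.3%) rose at 12 h, 1 fell, and 626 had a positive change. Of the 746 genes lower in T24h, 313 (42.0%) fell at 12 h, 2 rose, and 707 had a negative change. The 3 called in the opposite direction were LOC110821627, LOC110823940 and LOC110806623. A change under 0.5 in size on the log2 scale at 12 h was found in 78 of the higher and 83 of the lower genes. The 12 h count depended on single libraries. With C24h B not in the fit, 5180 genes were called at 12 h and 918 of the set-apart genes in the same direction. The 3675 genes (24.1%) called became 841, 876, 1936 and 1153 when C12h A, C12h C, T12h B or T12h C was dropped, and the 623 set-apart genes called in the same direction became 157, 142, 379 and 198. On recovered reads edgeR called 3728 genes at 12 h and 639 of the set-apart genes in the same direction, but 1578 and 271 when T12h B and T24h B were not in its fit. The effect at 24 h was not shown to differ from that at 12 h, since the test of the difference called 0 genes in limma, with a lowest adjusted p of 0.130, and unadjusted p-values of 0.05 or lower were found in 1938 genes (12.7%). This count of 0 became 9 with C24h B not in the fit and 60 with neither C24h B nor T24h C in it, a choice made after seeing the data.

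**Figure D2:**
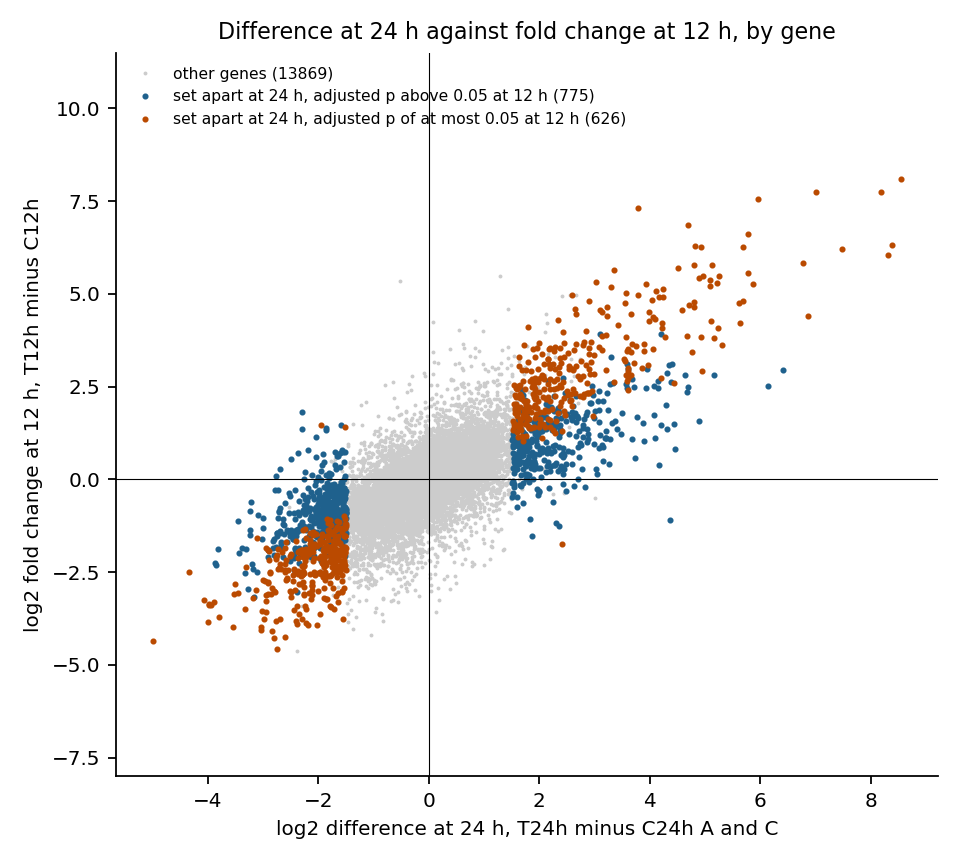
Log2 difference at 24 h (T24h minus C24h A and C, horizontal axis) and log2 change at 12 h (T12h minus C12h, vertical axis) for 15270 genes. Of the 1401 set-apart genes, 626 were called changed at 12 h and 775 were not, and 626 of the 655 higher and 707 of the 746 lower genes have the same sign on both axes.

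Within harvest A and within harvest C, the T24h minus C24h difference had medians of 2.37 and 2.55 over the higher genes and of -2.00 and -2.12 over the lower ones, a separation that the choice of the genes fixes. Harvest B went the other way. T24h B minus C24h B had a median of -0.38 over the higher genes, of which 230 of 655 (35.1%) were positive, and of 0.15 over the lower genes, of which 313 of 746 (42.0%) were negative. At 12 h, harvest B moved like the others. The T12h minus C12h median was 1.93, 1.14 and 2.44 in harvests A, B and C over the higher genes, with 92.1%, 86.3% and 96.0% of them positive, and -1.43, -1.11 and -1.86 over the lower genes, with 91.7%, 90.3% and 93.8% negative. The T12h libraries of all 3 harvests were therefore moved in the direction of T24h. At 24 h the direction in harvests A and C was fixed by the choice of the genes, and harvest B went the other way.

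The 6 genes most separated on the higher side have no name in the reference table. LOC110825971 had 155 and 78.1 normalized counts in C24h A and C, 83630, 24392 and 35369 in T24h A, B and C, and 35476 in C24h B, a log2 difference of 8.55. LOC110807004 (gene3307) had 373 and 52.9 in C24h A and C, 99916, 24976 and 36393 in T24h, and 36240 in C24h B, a log2 difference of 8.31. LOC110810472 had 49.3 and 12.1 in C24h A and C, 15088, 2079 and 13498 in T24h, and 14592 in C24h B, a log2 difference of 8.19. In each of them C24h B lay within the range of the T24h libraries, and T24h B was the lowest of the 3. All 3 rose at 12 h, by 8.09 ± 2.05, 6.05 ± 1.92 and 7.74 ± 2.10 (SE) with adjusted p of 0.0161, 0.0357 and 0.0202 in limma.

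LOC110809564 (gene637) and LOC110813489 had no counts in C24h A or C. LOC110809564 had 615, 236 and 251 in T24h A, B and C and 273 in C24h B, which is at least 117-fold higher in T24h against a floor of 3 reads per library. LOC110813489 had 428, 14.1 and 324 in T24h and 412 in C24h B, at least 81.2-fold higher. LOC110806985 (gene3308), which follows gene3307 in the gene numbering, had 3.15 and 1.74 in C24h A and C, 1214, 258 and 682 in T24h, and 724 in C24h B. These genes likewise rose at 12 h, from 0.304 ± 0.527 to 102 ± 34.8 normalized counts (SD, n = 3) for LOC110809564 (adjusted p = 0.0148), from 0.609 ± 1.05 to 313 ± 103 for LOC110813489 (0.0125) and from 5.71 ± 7.72 to 359 ± 229 for LOC110806985 (0.0213), in limma.

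Among the genes lower in T24h, the widest separation was in PUM12 (LOC110809562), a member of the Pumilio family of RNA-binding proteins. PUM12 had 106 and 249.9 in C24h A and C, 1.21, 8.05 and 5.77 in T24h A, B and C, and 7.54 in C24h B, a log2 difference of -5.0. CBL10 (LOC110822022), a calcineurin B-like calcium sensor, had 339.8 and 961 in C24h A and C, 19.4, 57.3 and 39.2 in T24h, and 24.1 in C24h B, a log2 difference of -3.98. LOC110807886, LOC110821832, LOC110808393 and LOC110822799, none with a name in the table, had log2 differences between -4.34 and -3.99. All 6 fell at 12 h, PUM12 by 4.36 on the log2 scale (SE 1.0, adjusted p = 0.0116) and CBL10 by 3.37 (SE 0.98, adjusted p = 0.0261) in limma. All 12 of these widest genes lost the 12 h call without C12h A (adjusted p from 0.0518 to 0.126) or C12h C (0.0524 to 0.150), and 3, 4, 7 and 10 of them lost it without C12h B, T12h A, T12h B or T12h C (up to 0.0669, 0.0920, 0.109 and 0.1097).

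Of the set-apart genes, 146 of the higher and 160 of the lower have a symbol. TLP-3 (LOC110813533) had 1155 and 443 in C24h A and C, 27138, 14342 and 37443 in T24h A, B and C, and 39309 in C24h B. Its log2 difference was 5.09, and it rose at 12 h from 1103 ± 1313 to 25070 ± 1011 (adjusted p = 0.0147, limma). OPT1 (LOC110820655), an oligopeptide transporter, had 51.4 and 26.9 in C24h A and C, 1620, 191 and 1048 in T24h, and 1129 in C24h B, and it rose by 4.91 ± 1.14 (SE) at 12 h (adjusted p = 0.012, limma). QWRF7 (LOC110820392) had 1.05 and 0 in C24h A and C, 102, 4.02 and 21.9 in T24h, and 43.8 in C24h B, and it rose by 4.26 ± 1.32 at 12 h (adjusted p = 0.0325, limma). In all 3 genes C24h B was inside or above the treated range. NPGR1 (LOC110808456), a calmodulin-binding protein, was lower in T24h, with 62.9 and 90.2 in C24h A and C, 3.63, 10.1 and 4.61 in T24h, and 3.02 in C24h B, and it fell by 3.08 at 12 h (SE 0.92, adjusted p = 0.0289, limma). All 4 genes lost the 12 h call without C12h A (adjusted p from 0.0550 to 0.0985) or C12h C (0.0569 to 0.104), and 1, 2, 1 and 3 of them lost it without C12h B, T12h A, T12h B or T12h C (up to 0.0536, 0.0665, 0.0832 and 0.1105).

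A second set of genes was high in T24h without a called change at 12 h. PLP9 (LOC110814795), of the patatin-like family of lipid hydrolases, had 224 and 57.3 in C24h A and C, 2703, 2824 and 1731 in T24h A, B and C, and 1867 in C24h B, a log2 difference of 4.37. At 12 h it had 119 ± 39.5 in C12h and 107 ± 146 in T12h (log2 change of -1.09 ± 1.11, adjusted p = 0.486, limma). RNS3 (LOC110809141), a T2-type ribonuclease, had 4.2 and 1.74 in C24h A and C, 35.1, 124 and 121 in T24h, and 109 in C24h B, against 1.17 ± 0.537 in C12h and 6.63 ± 5.16 in T12h (adjusted p = 0.371). The difference between the 24 h and 12 h effects was called for neither gene.

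FUC1 (LOC110813475), an alpha-fucosidase, and JKD (LOC110815802), a zinc finger transcription factor in Arabidopsis, were at 0 in all 3 T24h libraries. FUC1 had 9.44 and 9.54 in C24h A and C and 3.02 in C24h B, which is at least 2.62-fold lower in T24h against the floor of 3 reads per library. JKD had 5.24 and 14.8 in C24h A and C and 1.51 in C24h B, at least 2.75-fold lower. SIG4 (LOC110809326), a plastid sigma factor, had 13.6 and 20.8 in C24h A and C, 2.42, 1.01 and 0 in T24h, and 3.02 in C24h B. These 3 genes were among the 106 that met the criteria with C24h B kept, but at these levels a few reads decide the values.

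Cell wall genes lay on both sides. Of the 156 wall genes tagged by the study, only 69 could be paired with the table. Of the 68 of these that were measured, 22 were set apart higher and 9 lower, against 4.29% and 4.89% of all genes. With C24h B kept the counts were 4 and 1, and with neither C24h B nor T24h C they were 21 and 10. The tagged genes came from a file that lists only genes the study called in these libraries, so their share is not independent evidence. The same 4.29% and 4.89% of all genes, and the same limit, apply to the counts of each wall family below. Those counts cover only the paired members, so they describe a part of each family as the study tagged it. The median difference of the 68 genes at 24 h was 0.40 without C24h B, 0.18 with it and 0.14 with neither C24h B nor T24h C. At 12 h it was 0.06, where 16 rose and 18 fell, against 11.7% and 12.3% of all genes, and the families lay on both sides.

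Polygalacturonases cut the galacturonan backbone of pectin. Of 7 measured, 3 were set apart higher and 1 lower, with a median difference of 2.15. The median was 1.5 with C24h B kept and 1.81 with neither C24h B nor T24h C. LOC110826274 (gene2536) had 2018 and 673 in C24h A and C, 101366, 18300 and 47015 in T24h A, B and C, and 50347 in C24h B, a log2 difference of 5.25, and it rose by 5.47 ± 1.5 (SE) at 12 h (adjusted p = 0.0211, limma). LOC110809302 (gene5336, PG3 in the real-time PCR set) had 5.24 and 2.6 in C24h A and C, 289, 49.3 and 66.9 in T24h, and 75.4 in C24h B, and its change at 12 h was 3.10 ± 1.16 with an adjusted p of 0.0644. LOC110811267 (gene7049) had 215 and 37.3 in C24h A and C, 2005, 646 and 346 in T24h, and 329 in C24h B, with an adjusted p of 0.18 at 12 h. In these 3 genes T24h A was the highest of the 24 h libraries. LOC110813488 (gene9058, PG2) was not set apart, since T24h B was at 0, with 1.05 and 0 in C24h A and C, 24.2 and 9.23 in T24h A and C, and 4.53 in C24h B. LOC110814146 (gene9649) was lower in T24h, with 95.4 and 249.9 in C24h A and C, 18.1, 58.4 and 31.1 in T24h, and 31.7 in C24h B, and it fell from 148 ± 44.9 to 9.21 ± 3.17 at 12 h (adjusted p = 0.00551, limma).

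Rhamnogalacturonate lyases cut the branched part of pectin. Both members that were paired and measured were set apart higher, also with C24h B kept. LOC110825606 (gene19960) had 223 and 79.0 in C24h A and C, 846, 519 and 514 in T24h A, B and C, and 442 in C24h B, a log2 difference of 2.19, and it rose by 2.44 ± 0.52 (SE) at 12 h (adjusted p = 0.00921, limma). Its neighbour in the numbering, LOC110825605 (gene19959), had 3.15 and 2.6 in C24h A and C, 116, 14.1 and 13.8 in T24h, and 10.6 in C24h B, and it rose by 3.16 ± 0.88 at 12 h (adjusted p = 0.0218, limma). C24h B lay above both controls and below every treated library in both genes. Of the 3 paired pectate lyases, which also cut the pectin backbone, 1 was set apart, LOC110819800 (gene14718), which was lower in T24h.

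Pectin methylesterases take methyl groups off pectin and so open it to polygalacturonases and pectate lyases. Of 7 measured, 3 were set apart lower and 2 higher, with a median difference of -1.5, and 0 either way with C24h B kept, where the median was -1.07. PMEPCRA (LOC110806763, gene3087, PME2) had 48.2 and 114 in C24h A and C, 9.68, 8.05 and 20.8 in T24h A, B and C, and 18.1 in C24h B, a log2 difference of -2.55. PME31 (LOC110820172, gene15057, PME3) had 363 and 716 in C24h A and C, 64.1, 201 and 266 in T24h, and 246 in C24h B, and it fell by 2.06 at 12 h (SE 0.55, adjusted p = 0.0192, limma). LOC110821415 (gene16191) had 13.6 and 42.5 in C24h A and C, 7.26, 6.04 and 4.61 in T24h, and 7.54 in C24h B, and it fell by 2.23 at 12 h (adjusted p = 0.0113, limma). Going the other way, LOC110808384 (gene4527) had 26.2 and 19.1 in C24h A and C, 275, 170.0 and 142 in T24h, and 146 in C24h B, with an adjusted p of 0.065 at 12 h. PME1 (LOC110818404, gene13517) was not set apart at 24 h, where C24h A and C had 1387 and 796, T24h had 398, 746 and 765, and C24h B had 834, although it fell by 1.66 at 12 h (SE 0.31, adjusted p = 0.00625, limma).

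Pectin methylesterase inhibitors bind and block these enzymes. Of 8 measured, 3 were set apart higher and 1 lower, and 0 either way with C24h B kept. LOC110823499 (gene17935) had 1.05 and 0 in C24h A and C, 165, 17.1 and 115 in T24h A, B and C, and 118 in C24h B, a log2 difference of 5.62, and it rose at 12 h from 7.47 ± 10.3 to 121 ± 32.2 (adjusted p = 0.0457, limma). LOC110823232 (gene17738) had 92.3 and 65.9 in C24h A and C, 3.63, 9.06 and 9.23 in T24h, and 3.02 in C24h B, and it fell by 3.48 at 12 h (SE 0.97, adjusted p = 0.0221, limma). LOC110821276 (gene15998) was set apart higher by 1.99 and rose at 12 h (adjusted p = 0.0194, limma), but it had 4.02 in T24h B against 2.1 and 2.6 in the controls, and without T24h C its difference was 1.21. Members of this family thus lay on both sides at both times.

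Galactosidases remove galactose side chains. BGAL10 (LOC110816435, gene11696) had 1011 and 417 in C24h A and C, 3222, 1844 and 1950 in T24h A, B and C, and 1954 in C24h B, a log2 difference of 1.80, and it rose by 1.45 ± 0.49 (SE) at 12 h (adjusted p = 0.0466, limma). LOC110811182 (gene7019, BGAL1) had 12651 and 6140 in C24h A and C, 48577, 13570 and 23370 in T24h, and 25452 in C24h B. All treated libraries of BGAL1 were above both controls, but its difference, 1.5 when rounded, was just under the limit, and it rose by 2.79 ± 0.60 at 12 h (adjusted p = 0.00997, limma). The alpha-galactosidase LOC110817097 (gene1360, AGAL3) was lower in T24h, with 500.3 and 613 in C24h A and C, 119.8, 142 and 405 in T24h, and 442 in C24h B, and its 12 h levels were 493 ± 155 and 511 ± 238. LOC110813995 (gene9513, PL1), a pectate lyase of the real-time PCR set, was not set apart, with 19.9 and 18.2 in C24h A and C, 9.68, 9.06 and 43.8 in T24h, and 61.9 in C24h B, above every other library of 24 h. Of the 13 pectin and galactosidase genes named as called at 12 h (LOC110813488 included, adjusted p = 0.0328), 9, 1 and 10 lost the call without C12h A, B or C (adjusted p up to 0.170, 0.0763 and 0.144), and 4, 6 and 8 without T12h A, B or C (up to 0.0888, 0.111 and 0.151). LOC110814146, LOC110825606 and PME1 kept it whichever 12 h library was left out.

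Cellulose synthases and the genes of other wall polymers differed in both directions. IRX3 (LOC110815766, gene11115), which in Arabidopsis is a subunit of the cellulose synthase of secondary walls, had 151 and 52.9 in C24h A and C, 5451, 748 and 4023 in T24h A, B and C, and 4228 in C24h B, a log2 difference of 4.81, and it rose by 6.28 ± 1.56 (SE) at 12 h (adjusted p = 0.0152, limma). The cellulose synthase gene LOC110817890 (gene13050) had 237 and 209 in C24h A and C, 14.5, 62.4 and 25.4 in T24h, and 24.1 in C24h B, and it fell by 2.80 at 12 h (SE 0.77, adjusted p = 0.0215, limma). The 2 genes lay on opposite sides, and C24h B was with T24h in both. Of the 47 measured genes of cellulose and wall polymer synthesis, 3 (6.38%) were set apart higher (IRX3, COBL6 and CSLC04), against 4.29% of all genes. Lower were 4 (8.51%), GALS1, TBL38, TBL35 and TBL2, against 4.89%, and the median difference was -0.09. None of the 47 met the criteria with C24h B kept, where the median was -0.10. At 12 h 11 rose and 6 fell, against 11.7% and 12.3% of all genes.

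Xyloglucan endotransglucosylases cut and rejoin xyloglucan chains. Of 7 tagged members, 3 were set apart higher and 0 lower, against 4.29% and 4.89% of all genes, with a median difference of 1.86. The count was 1 and the median 1.07 with C24h B kept, and at 12 h 1 rose, 1 fell and the median was 0.88. LOC110826405 (gene2663) had 2.1 and 0.868 in C24h A and C, 98.0, 33.2 and 19.6 in T24h A, B and C, and 12.1 in C24h B, and LOC110826410 (gene2664) had 23.1 and 50.3 in C24h A and C, 269.8, 109.7 and 191 in T24h, and 201 in C24h B. Neither was called at 12 h, with adjusted p of 0.383 and 0.314 in limma. XTH30 (LOC110806596, gene2950) had 1641 and 1285 in C24h A and C, 8883, 2816 and 5889 in T24h, and 5680 in C24h B, and it rose from 1680 ± 1000 to 8569 ± 728 at 12 h (adjusted p = 0.013, limma). XTH31 (LOC110824296), found by its symbol, had 35672 and 9418 in C24h A and C, 117017, 92333 and 61549 in T24h, and 60095 in C24h B, and met the criteria with C24h B kept as well. XYL1 (LOC110824054), an alpha-xylosidase that trims xyloglucan, was lower in T24h, with 637 and 525 in C24h A and C, 20.6, 185 and 169.6 in T24h, and 146 in C24h B. The xyloglucan galactosyltransferase gene LOC110812108 (gene7908) had 5.24 and 1.74 in C24h A and C, 29.0, 6.04 and 13.8 in T24h, and 10.6 in C24h B, and it rose by 2.66 ± 0.73 (SE) at 12 h (adjusted p = 0.0211, limma).

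Expansins loosen the contact between cellulose and xyloglucan. LOC110819370 (gene14153) had 274 and 134 in C24h A and C, 1956, 668 and 1931 in T24h A, B and C, and 2183 in C24h B, a log2 difference of 2.82, while its 12 h levels were 271 ± 19.1 and 282 ± 219.6. LOC110814908 (gene10338) had 58.7 and 39.9 in C24h A and C, 26.6, 8.05 and 9.23 in T24h, and 10.6 in C24h B. Of the 6 cellulases, 3 were set apart higher, all at low counts, and 0 with C24h B kept. LOC110817069 (gene12311) was at 0 in C24h A and C and had 19.4, 14.1 and 4.61 in T24h and 15.1 in C24h B, at least 4.03-fold higher against 3 reads per library. LOC110817068 (gene12310) had 1.05 and 0 in the controls, 37.5, 12.1 and 6.92 in T24h, and 9.05 in C24h B.

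The genes TBL38 and TBL35 were set apart lower in T24h and the laccase gene LAC7 higher. TBL38 (LOC110822119), of the trichome birefringence-like family that acetylates wall polysaccharides, had 861 and 1573 in C24h A and C, 38.7, 106 and 115 in T24h A, B and C, and 109 in C24h B, a log2 difference of -3.88, and was not called at 12 h (adjusted p = 0.0714, limma). TBL35 (LOC110822599) was at 0 in all T24h libraries and in C24h B, with 7.34 and 4.34 in C24h A and C, and it fell from 15.7 ± 5.35 to 2.19 ± 1.17 at 12 h (adjusted p = 0.0217, limma). BXL1 (LOC110813645, gene1043), a beta-xylosidase, had 811 and 1506 in C24h A and C, 246, 284 and 567 in T24h, and 652 in C24h B. LAC7 (LOC110814280), a laccase, was higher, with 1.05 and 0.868 in C24h A and C, 64.1, 16.1 and 2.31 in T24h, and 4.53 in C24h B, which was above T24h C, and its difference of 2.98 was 4.09 without T24h C. LAC7 rose by 2.85 ± 0.96 (SE) at 12 h (adjusted p = 0.0439, limma). Of 8 tagged arabinogalactan protein genes, LOC110823186 (gene17706) was set apart higher, with 155 and 115 in C24h A and C, 2004, 261 and 481 in T24h, and 456 in C24h B, and it rose by 1.91 ± 0.65 at 12 h (adjusted p = 0.0459, limma). FLA21 (LOC110816923) fell by 2.19 at 12 h (adjusted p = 0.0425, limma), but at 24 h its 36.9 in T24h C lay above C24h A and C, and C24h B had 40.7. IRX3, LOC110817890, XTH30, TBL35, LOC110812108, LOC110823186, FLA21 and LAC7 all lost the 12 h call without C12h A or C12h C (adjusted p up to 0.144), and 3, 3, 5 and 7 of these 8 lost it without C12h B, T12h A, T12h B or T12h C (up to 0.0930, 0.137, 0.0815 and 0.143).

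**Figure D3:**
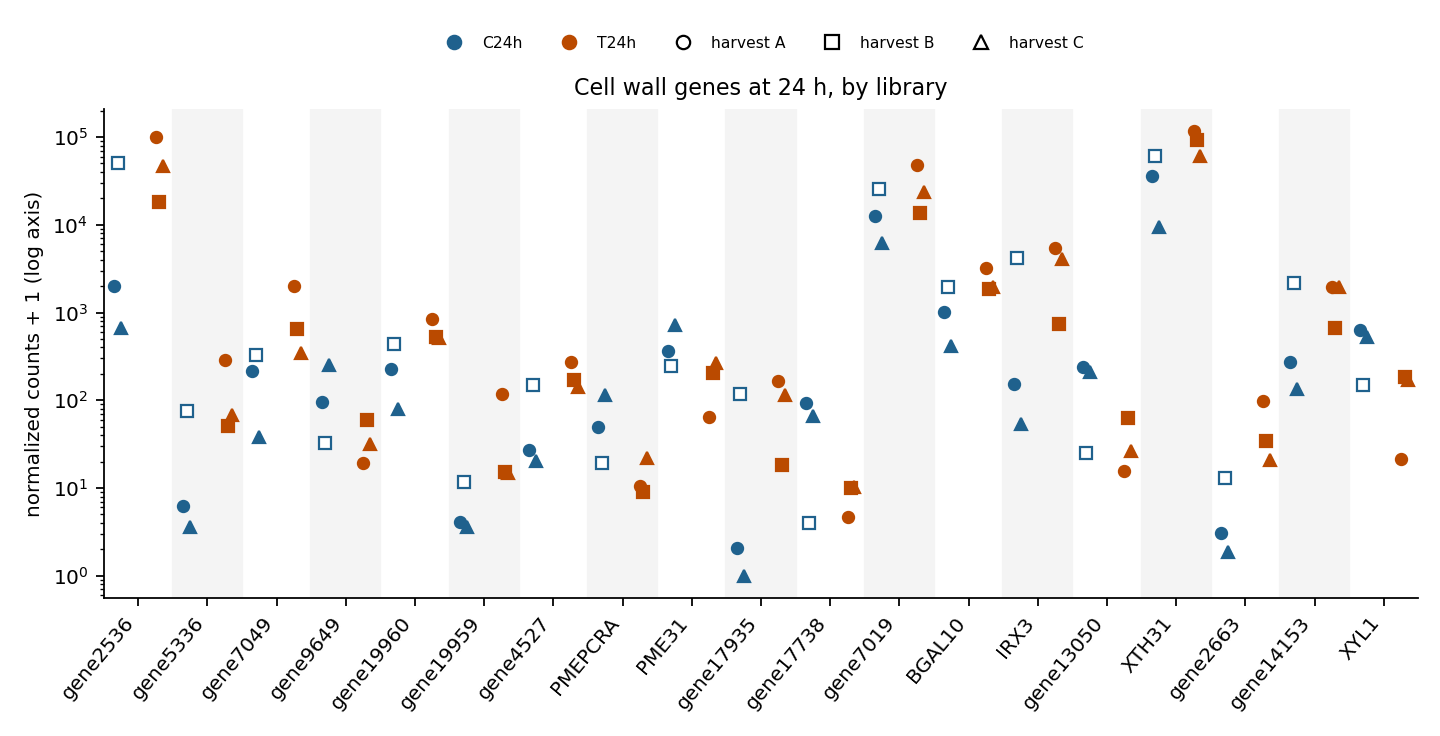
Normalized counts + 1 (vertical log axis) in the 24 h libraries for 19 cell wall genes (horizontal axis), with 1 point per library, shapes for harvests A, B and C, and C24h B as the open square. In IRX3 the open square, at 4228 normalized counts, lies among the T24h points and above the other controls at 151 and 52.9.

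Genes of plastid fatty acid synthesis were higher in T24h as a group. Of 14 measured, 10 were set apart higher and 0 lower, against 4.29% and 4.89% of all genes, with a median difference of 1.72. A difference above 0 was found in 13 of the 14, against 7588 of all 15270 genes. With C24h B kept, 1 of the 14 met the criteria and the median was 1.2. With neither C24h B nor T24h C there were again 10, with a median of 1.83. At 12 h the median was 0.75, and 3 of the 14 rose, against 11.7% of all genes, and 0 fell.

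Acetyl-CoA carboxylase makes the malonyl units from which fatty acids are built, and the 4 subunits on the list were all set apart higher. CAC2 (LOC110809829), its biotin carboxylase, had 652 and 443 in C24h A and C, 1808, 2063 and 984 in T24h A, B and C, and 943 in C24h B, a log2 difference of 1.52. CAC3 (LOC110814239), a carboxyltransferase subunit, had 561 and 495 in C24h A and C, 1858, 1932 and 1025 in T24h, and 1026 in C24h B. CAC1 (LOC110809409), a biotin carboxyl carrier, had 512 and 242 in C24h A and C, 1200, 945 and 1266 in T24h, and 1231 in C24h B. In CAC2 and CAC3, but not in CAC1, T24h C and C24h B lay between the controls and the other treated libraries. BCCP2 (LOC110820150), the second biotin carboxyl carrier, had 3.15 and 0 in C24h A and C, 18.1, 17.1 and 18.5 in T24h, and 13.6 in C24h B, and was the 1 gene of the list that met the criteria with C24h B kept. At 12 h the changes of the 4 subunits were 0.83, -0.05, 0.17 and 1.31 for CAC1, CAC2, CAC3 and BCCP2, with adjusted p from 0.143 to 0.915 in limma.

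The acyl carrier protein ACP4 (LOC110823006), which holds the growing chain, had the widest separation of the list. ACP4 had 61.9 and 37.3 in C24h A and C, 1033, 316 and 624 in T24h A, B and C, and 685 in C24h B, a log2 difference of 3.59, and it rose from 45.7 ± 17.9 to 483 ± 84.4 at 12 h (adjusted p = 0.0116, limma). KASI (LOC110807584), a ketoacyl-ACP synthase that extends the chain, had 722 and 393 in C24h A and C, 2284, 1535 and 1679 in T24h, and 1779 in C24h B. MOD1 (LOC110807389), the enoyl-ACP reductase that ends each cycle, had 1152 and 872 in C24h A and C, 4735, 3622 and 2385 in T24h, and 2425 in C24h B. At 12 h KASI had an adjusted p of 0.0631 in limma, and MOD1 had 1089 ± 223 in C12h and 1118 ± 114 in T12h.

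Desaturases put the double bonds into these chains. SSI2 (LOC110821335), the stearoyl-ACP desaturase, had 2161 and 1512 in C24h A and C, 10318, 7136 and 5622 in T24h A, B and C, and 5721 in C24h B, and it rose by 1.1 ± 0.38 (SE) at 12 h (adjusted p = 0.0468, limma). FAD5 (LOC110821049), a plastid palmitate desaturase, had 33440 and 11641 in C24h A and C, 63614, 62652 and 104135 in T24h, and 103349 in C24h B. FAD6 (LOC110815673), a plastid oleate desaturase, was not set apart, with 1337 and 1020 in C24h A and C, 3446, 2005 and 3195 in T24h, and 3176 in C24h B, a log2 difference of 1.26, although it rose by 1.12 ± 0.36 at 12 h (adjusted p = 0.0356, limma). LACS9 (LOC110813520), a long-chain acyl-CoA synthetase of the plastid envelope, had 565 and 277 in C24h A and C, 4132, 4474 and 1692 in T24h, and 1779 in C24h B, a log2 difference of 2.99. In LACS9, T24h A and B were more than 2-fold above T24h C and C24h B, and its 12 h levels were 415 ± 139 and 781 ± 158 (adjusted p = 0.205, limma).

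**Figure D4:**
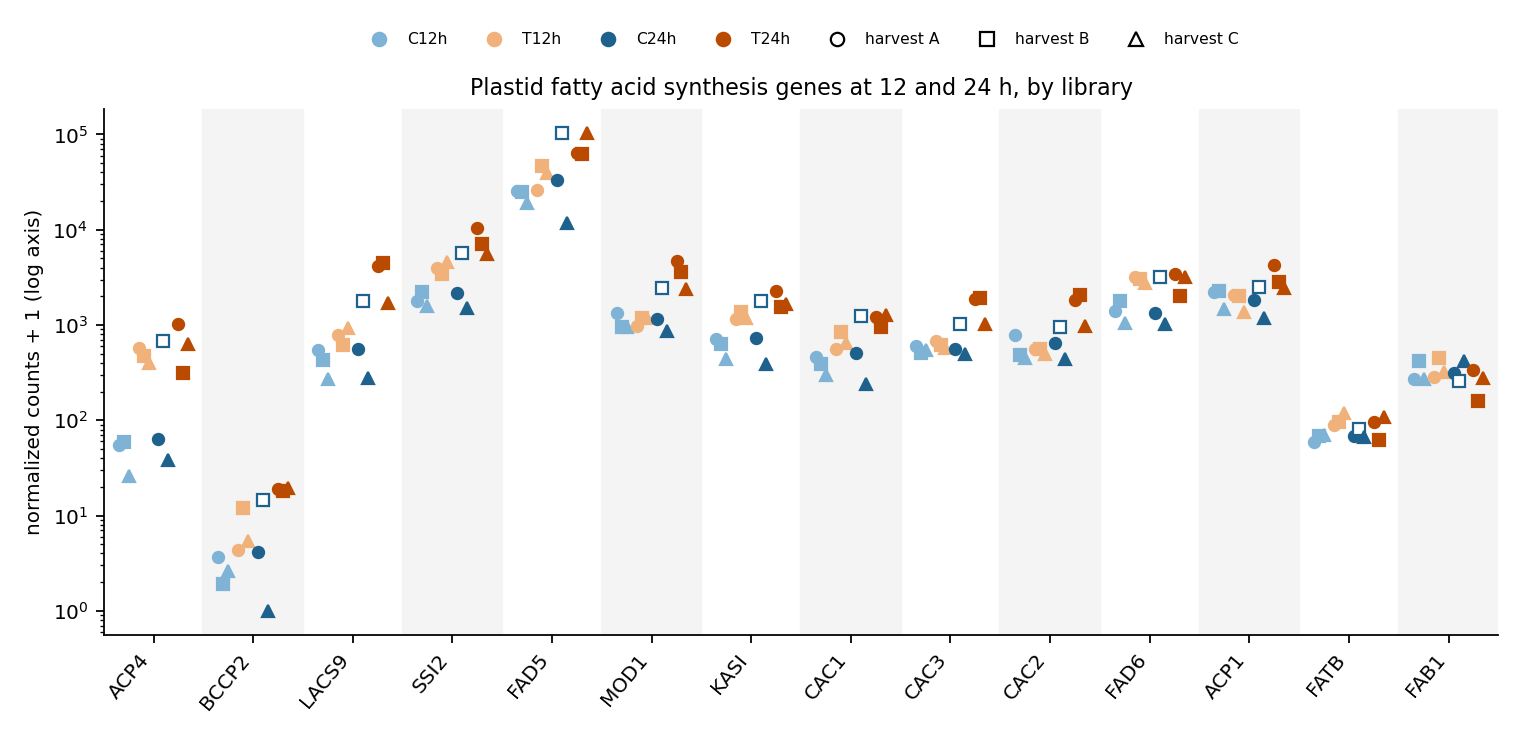
Normalized counts + 1 (vertical log axis) in the 12 h and 24 h libraries for 14 genes of plastid fatty acid synthesis (horizontal axis), with 1 point per library, shapes for harvests A, B and C, and C24h B as the open square. In the 10 set-apart genes the 3 T24h points lie above the filled C24h circle and triangle, as the choice of these genes fixes. Their log2 differences of means run from 1.52 in CAC2 to 3.59 in ACP4.

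Of the 29 measured genes of peroxisomal fatty acid breakdown, 4 (13.8%) were set apart higher and 0 lower, against 4.29% and 4.89% of all genes. Their median difference was 0.31. With C24h B kept the count was 0 and the median 0.21. At 12 h 6 rose and 4 fell, against 11.7% and 12.3% of all genes. MLS (LOC110823057), the malate synthase of the glyoxylate cycle, had 4.2 and 5.21 in C24h A and C, 157, 38.2 and 129 in T24h A, B and C, and 115 in C24h B, a log2 difference of 4.04, and it rose from 3.84 ± 2.22 to 135 ± 53.6 at 12 h (adjusted p = 0.00702, limma). ACX2 (LOC110818931), a long-chain acyl-CoA oxidase, had 1163 and 826 in C24h A and C, 4519, 2501 and 4385 in T24h, and 4539 in C24h B, and it rose by 2.21 ± 0.51 (SE) at 12 h (adjusted p = 0.0119, limma). PXN (LOC110819246), a peroxisomal carrier of NAD, had 1204 and 606 in C24h A and C, 3340, 2907 and 3910 in T24h, and 3472 in C24h B. The fourth was PMDH2 (LOC110818995), the peroxisomal malate dehydrogenase, with 26.2 and 35.6 in C24h A and C, 73.8, 146 and 148 in T24h, and 148 in C24h B. PXN and PMDH2 were not called at 12 h (adjusted p of 0.0613 and 0.549, limma). Of the lipid genes called at 12 h, MLS kept its call whichever 12 h library was left out, ACP4 lost it without C12h C (adjusted p = 0.0557), and SSI2, ACX2 and FAD6 lost it without C12h A or C12h C, with adjusted p up to 0.147. SSI2 also lost it without C12h B, and SSI2 and FAD6 without any of T12h A, B or C, with adjusted p up to 0.135.

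At 24 h 1 of 7 measured genes of ethylene synthesis (14.3%) was set apart higher, against 4.29% of all genes. It was MTO3 (LOC110808295), an S-adenosylmethionine synthetase, which makes the precursor. MTO3 had 984 and 1688 in C24h A and C, 2950, 3218 and 7093 in T24h A, B and C, and 7465 in C24h B, a log2 difference of 1.66 that was 1.26 without T24h C. SAM-2 (LOC110813193), another synthetase, had 141371 and 82450 in C24h A and C, 350051, 232920 and 221492 in T24h, and 232005 in C24h B, a log2 difference of 1.28. Of 9 measured receptors and signalling genes 0 were set apart, against 4.29% and 4.89% of all genes, with a median difference of 0.66 (0.38 with C24h B kept). At 12 h 3 of them rose (CTR1, ERS1 and ETR1), against 11.7% of all genes. ERS1 (LOC110808109), an ethylene receptor, had 1945 and 1646 in C24h A and C, 11926, 1567 and 5813 in T24h, and 5536 in C24h B, so T24h B overlapped the controls. ERS1 rose from 1967 ± 1431 to 10046 ± 1928 at 12 h (adjusted p = 0.0301, limma). EIN4 (LOC110807354), another receptor, had 969 and 836 in C24h A and C, 1325, 1473 and 2546 in T24h, and 2458 in C24h B, with a log2 difference of 0.92.

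The lists of NAC, MADS-box, WRKY and MYB factors were short, with 1 or 2 set-apart genes each. Higher in T24h were 9.09% of the NAC and 20.0% of the MADS-box factors, against 4.29% of all genes. Lower were 11.8% of the WRKY and 12.5% of the MYB factors, against 4.89% of all genes. With C24h B kept 0 of these factors met the criteria. Only 0.465% and 0.694% of all genes did so, so 0 in lists this short shows little. NAC025 (LOC110817727), 1 of 11 NAC factors measured, had 1132 and 587 in C24h A and C, 6913, 2580 and 4134 in T24h A, B and C, and 4738 in C24h B, a log2 difference of 2.36, and it rose from 979 ± 607 to 6315 ± 432 at 12 h (adjusted p = 0.0102, limma). Of 10 MADS-box factors 2 were higher. AGL14 (LOC110817459) had 48.2 and 48.6 in C24h A and C, 491, 137 and 289.5 in T24h, and 226 in C24h B, and it rose by 3.31 ± 0.65 (SE) at 12 h (adjusted p = 0.00721, limma). STK (LOC110822337), which in Arabidopsis sets ovule identity, had 465 and 246 in C24h A and C, 1742, 1154 and 1096 in T24h, and 1260 in C24h B, with an adjusted p of 0.0694 at 12 h. Of 17 WRKY factors 2 were lower, WRKY46 (LOC110825394), with 64.0 and 54.7 in C24h A and C, 2.42, 20.1 and 18.5 in T24h, and 13.6 in C24h B, and WRKY32 (LOC110815610), which had 37.7 in C24h B and a log2 difference of -1.54 that was -1.39 without T24h C. MYB80 (LOC110820816), the 1 of 8 MYB factors set apart, had 98.6 and 180.5 in C24h A and C, 16.9, 54.3 and 21.9 in T24h, and 27.2 in C24h B. WRKY46, WRKY32 and MYB80 fell at 12 h, with adjusted p of 0.0377, 0.0166 and 0.0162 in limma.

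The other hormone lists held 0 to 2 set-apart genes each, and 0 with C24h B kept. Lower were 9.09% of 22 auxin genes and 5.88% of 17 abscisic acid genes, against 4.89% of all genes. Higher were 11.1% of 9 jasmonate genes, against 4.29% of all genes. JAZ10 (LOC110806605), a repressor of jasmonate signalling, had 26.2 and 43.4 in C24h A and C, 150.0, 101 and 176 in T24h A, B and C, and 157 in C24h B, and it rose by 1.82 ± 0.52 (SE) at 12 h (adjusted p = 0.025, limma). HAB1 (LOC110818459), a phosphatase that holds back abscisic acid signalling, had 503 and 683 in C24h A and C, 155, 205 and 149.9 in T24h, and 116 in C24h B, with an adjusted p of 0.051 at 12 h. GID1C (LOC110811834), a gibberellin receptor, was not set apart at 24 h, where C24h A and C had 321 and 226, T24h had 136, 279.7 and 100.3, and C24h B had 104. At 12 h GID1C fell from 371 ± 54.6 to 96.5 ± 21.4 (adjusted p = 0.00784, limma), so T24h B lay between the 24 h controls while all T12h libraries were lower. Of the 4 gibberellin genes measured, 1 (GA2OX8) rose and 3 (GA2, RGL1 and GID1C) fell at 12 h, against 11.7% and 12.3% of all genes. At 24 h 0 of these 4 were set apart. GA2 (LOC110817263), an ent-kaurene synthase of gibberellin synthesis in Arabidopsis, fell by 1.05 (SE 0.32, adjusted p = 0.0307, limma).

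The circadian clock list was matched by symbol and also holds CONSTANS-like genes, so its shares are not those of clock components alone. Of its 16 genes 1 (6.25%) was set apart higher and 2 (12.5%) lower, against 4.29% and 4.89% of all genes, and 0 with C24h B kept. COL2 (LOC110813041), a CONSTANS-like factor, was higher, with 45.1 and 77.2 in C24h A and C, 831, 211 and 271 in T24h A, B and C, and 249 in C24h B. COL2 rose by 1.98 ± 0.62 (SE) at 12 h (adjusted p = 0.0345, limma), and the call was lost when the harvest was a block in the fit (adjusted p = 0.0508). APRR2 (LOC110822555), a pseudo-response regulator, was lower, with 271 and 357 in C24h A and C, 82.3, 112 and 122 in T24h, and 107 in C24h B, and it fell by 1.42 at 12 h (adjusted p = 0.0145, limma). COL4 (LOC110811306) was the other gene of this list set apart lower. NPQ1 (LOC110814926), the violaxanthin de-epoxidase, rose by 0.87 ± 0.27 at 12 h (adjusted p = 0.0307, limma), and its log2 difference at 24 h was 1.08. Of the 12 hormone, factor, clock-list and carotenoid genes named here with values at 12 h, from ERS1 to NPQ1, 9, 1 and 10 lost the call without C12h A, B or C (adjusted p up to 0.151, 0.0562 and 0.134), and 5, 6 and 9 without T12h A, B or C (up to 0.0907, 0.0953 and 0.123). AGL14 and GID1C kept it whichever 12 h library was left out, and NAC025 lost it without C12h C (adjusted p = 0.0504).

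Genes of photosynthesis and chlorophyll were lower in part. Of 33 measured, 5 were set apart lower (PSAN, PSBO1, NOL, FNR1 and PRK) and 1 higher (LHCB4.3), against 4.89% and 4.29% of all genes, with a median of -0.45. With C24h B kept 0 met the criteria either way and the median was -0.25. At 12 h the median was -0.72, and 2 rose and 5 fell, against 11.7% and 12.3% of all genes. PSAN (LOC110823371), a subunit of photosystem I, had 155 and 94.6 in C24h A and C, 10.9, 17.1 and 4.61 in T24h A, B and C, and 13.6 in C24h B, and it fell by 2.82 at 12 h (SE 0.78, adjusted p = 0.0217, limma). PSBO1 (LOC110820072), of the oxygen-evolving complex, had 180.4 and 224 in C24h A and C, 12.1, 76.5 and 60.0 in T24h, and 63.4 in C24h B. NOL (LOC110815186), a chlorophyll b reductase, had 35.7 and 44.3 in C24h A and C, 8.47, 11.1 and 1.15 in T24h, and 1.51 in C24h B. LHCB4.3 (LOC110819151), a light-harvesting protein, went the other way, with 2.1 and 0.868 in C24h A and C, 277, 93.6 and 63.4 in T24h, and 70.9 in C24h B, a log2 difference of 5.63, and it rose from 0.879 ± 0.915 to 33.9 ± 18.7 at 12 h (adjusted p = 0.0176, limma). The summed level of the 33 genes was 9234, 7546 and 11223 in C24h A, B and C and 10328, 7450 and 7484 in T24h A, B and C, so the sums overlapped. RBCX2 (LOC110811915), a Rubisco assembly chaperone, rose by 1.77 ± 0.44 (SE) and PETE1 (LOC110818226), a plastocyanin, fell by 1.16 at 12 h (adjusted p of 0.0157 and 0.029, limma). PSAN, LHCB4.3, RBCX2 and PETE1 all lost the 12 h call without C12h A, C12h C or T12h C (adjusted p up to 0.0867), PETE1 without C12h B (0.0605), and PSAN and PETE1 without T12h B (up to 0.0803). Of the 17 carotenoid genes 0 were set apart, against 4.29% and 4.89% of all genes, so 0 in a list this short shows little. Their median difference was 0.30 (0.25 with C24h B kept), and 14 of the 17 were above 0, against 7588 of all 15270 genes. With all 6 libraries, 7 of the 17 had an unadjusted p of 0.05 or lower in limma, against 2843 of all genes (18.6%), and 0 were called after adjustment. Of 7 seed markers 1 was measured, PAP85 (LOC110814029), a seed storage protein, with 83.9 and 246 in C24h A and C, 236, 121 and 43.8 in T24h, and 43.8 in C24h B. Its groups overlapped, and its difference was -0.41 without C24h B and 0.15 with it.

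Of 53 ABC transporters, 3 (5.66%) were set apart higher (ABCG2, ABCG31 and ABCG11) and 2 (3.77%) lower (ABCB19 and ABCC10). These shares were near the 4.29% and 4.89% of all genes, and 0 met the criteria either way with C24h B kept. ABCG2 (LOC110809908) had 1039 and 515 in C24h A and C, 20377, 3399 and 9060 in T24h A, B and C, and 9814 in C24h B, a log2 difference of 3.55, and it rose by 4.76 ± 1.06 (SE) at 12 h (adjusted p = 0.0109, limma). ABCG31 (LOC110810027) had 24.1 and 10.4 in C24h A and C, 168, 134 and 549 in T24h, and 639.8 in C24h B, and it rose by 4.96 ± 1.1 at 12 h (adjusted p = 0.0107, limma). ABCG11 (LOC110812948), which exports wax and cutin precursors in Arabidopsis, had 3.15 and 1.74 in C24h A and C, 16.9, 15.1 and 54.2 in T24h, and 52.8 in C24h B, and it rose by 3.53 ± 0.96 at 12 h (adjusted p = 0.0208, limma). ABCB19 (LOC110820091), an auxin transporter in Arabidopsis, was lower, with 48.2 and 51.2 in C24h A and C, 8.47, 16.1 and 5.77 in T24h, and 4.53 in C24h B, and it fell by 2.58 at 12 h (adjusted p = 0.0175, limma). PIP2;8 (LOC110818922), a plasma membrane aquaporin, had 272 and 332 in C24h A and C, 10.9, 60.4 and 48.4 in T24h, and 57.3 in C24h B, and it fell by 3.19 at 12 h (SE 0.83, adjusted p = 0.0174, limma). TIP2;2 (LOC110807344), a tonoplast aquaporin, lay on the other side, with 4.2 and 7.81 in C24h A and C, 16.9, 66.4 and 55.4 in T24h, and 48.3 in C24h B.

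Of 52 measured sucrose and starch genes, 4 (7.69%) were set apart higher (SUS2, STP14, TPPG and SS4) and 3 (5.77%) lower (ISA1, ISA3 and TPS5). Over all genes the shares were 4.29% and 4.89%, and the median of the list was 0.10. With C24h B kept the counts were 1 and 0 and the median was 0.09, and at 12 h 12 rose and 1 fell, against 11.7% and 12.3% of all genes. SUS2 (LOC110815045), a sucrose synthase, had 9.44 and 1.74 in C24h A and C, 49.6, 57.3 and 30.0 in T24h A, B and C, and 21.1 in C24h B, and met the criteria with C24h B kept. STP14 (LOC110816261), a sugar transporter, had 2140 and 886 in C24h A and C, 6841, 2627 and 7293 in T24h, and 7702 in C24h B, and it rose from 2186 ± 790.5 to 10363 ± 2293 at 12 h (adjusted p = 0.0188, limma). ISA1 (LOC110809821), an isoamylase, was lower, with 52.4 and 65.1 in C24h A and C, 14.5, 13.1 and 21.9 in T24h, and 28.7 in C24h B. SS4 (LOC110819709), a starch synthase with 911 in C24h B, had a log2 difference of 1.53 that was 1.46 without T24h C, and it rose at 12 h (adjusted p = 0.0369, limma).

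Most vesicle tethering and fusion genes differed by less than the limit. Of 52 measured, 44 had a positive difference at 24 h, against 7588 of all 15270 genes, and the median was 0.53. Set apart were 1 higher (RABA1I) and 1 lower (RABA1B), against 4.29% and 4.89% of all genes. The median was 0.28 and 0 met the criteria with C24h B kept. RABA1I (LOC110821928), a Rab GTPase, had 141 and 78.1 in C24h A and C, 477, 315 and 481 in T24h A, B and C, and 438 in C24h B, and it rose by 2.12 ± 0.50 (SE) at 12 h (adjusted p = 0.0131, limma). At 12 h 21 of the 52 rose and 4 fell, against 11.7% and 12.3% of all genes. Of the ABC transporters, PIP2;8, STP14, SS4 and RABA1I, 8 genes called at 12 h, 7, 1 and 7 lost the call without C12h A, B or C (adjusted p up to 0.0738, 0.0594 and 0.139), and 1, 4 and 6 without T12h A, B or C (up to 0.0705, 0.0718 and 0.113), while ABCG31 kept it. Cell cycle and DNA replication genes had a median of -0.53 at 24 h without C24h B, -0.19 with it and 0.20 at 12 h. At 12 h 3 of the 37 measured rose and 4 fell, against 11.7% and 12.3% of all genes. At 24 h 3 (8.11%) were set apart lower (MCM4, MCM6 and APC6) and 0 higher, against 4.89% and 4.29% of all genes. With C24h B kept 0 met the criteria either way. MCM4 (LOC110808203), a subunit of the replication helicase, had 24.1 and 21.7 in C24h A and C, 16.9, 4.02 and 4.61 in T24h, and 4.53 in C24h B, a log2 difference of -1.58 that was -1.33 without T24h C. Ribosomal protein genes had a median of -0.45 (-0.29 with C24h B kept). Of 15 measured 0 were set apart, against 4.29% and 4.89% of all genes, and 0 were called at 12 h, against 11.7% and 12.3%.

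Stress and respiration genes held single members with wide differences. HSP70T-2 (LOC110814125), a heat shock protein of the HSP70 family, had 58.7 and 44.3 in C24h A and C, 1402, 244 and 669 in T24h A, B and C, and 620.2 in C24h B, a log2 difference of 3.56, and it rose by 5.03 ± 1.02 (SE) at 12 h (adjusted p = 0.00765, limma). HSP21 (LOC110823083), a small heat shock protein of plastids, was lower, with 9.44 and 26.9 in C24h A and C, 1.21, 2.01 and 0 in T24h, and 0 in C24h B. Of the 29 heat shock and chaperone genes, 2 (6.90%) were set apart higher (HSP70T-2 and SHD), against 4.29% of all genes. Lower were 3 (10.3%), HSP21, CLPB4 and HSP89.1, against 4.89%, and 0 met the criteria either way with C24h B kept. NDB1 (LOC110816953), an alternative NAD(P)H dehydrogenase of mitochondria, had 130.1 and 127 in C24h A and C, 15.7, 54.3 and 16.1 in T24h, and 28.7 in C24h B, and it fell by 2.55 at 12 h (SE 0.54, adjusted p = 0.00939, limma). BETA-VPE (LOC110817536), a vacuolar processing enzyme, had 632 and 697 in C24h A and C, 61.7, 298 and 196 in T24h, and 232 in C24h B, and it fell from 597 ± 177 to 172 ± 11.7 at 12 h (adjusted p = 0.031, limma). SAG29 (LOC110810803), a sugar transporter of the SWEET family, had 278 and 189 in C24h A and C, 2259, 553 and 1315 in T24h, and 1222 in C24h B, and it rose by 3.02 ± 0.67 at 12 h (adjusted p = 0.0104, limma). HSP70T-2 and NDB1 kept the 12 h call whichever 12 h library was left out, SAG29 lost it without C12h A (adjusted p = 0.0528), and BETA-VPE lost it without C12h A, C12h C or any T12h library, with adjusted p up to 0.117.

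Of 5 genes of hypoxia and fermentation, GAD4 (LOC110823716), a glutamate decarboxylase, was set apart higher and ADH1 (LOC110815235), an alcohol dehydrogenase, lower. Over all genes the shares were 4.29% and 4.89%, and 1 gene each way in a list this short shows little. Neither met the criteria with C24h B kept. GAD4 had 1.05 and 6.94 in C24h A and C, 55.7, 16.1 and 15 in T24h A, B and C, and 18.1 in C24h B. ADH1 had 168 and 397 in C24h A and C, 25.4, 39.2 and 81.9 in T24h, and 58.9 in C24h B, and its change at 12 h was -1.38 ± 0.61 (SE) with an adjusted p of 0.109 in limma. GLB1 (LOC110811485), a non-symbiotic hemoglobin, missed the limit with a log2 difference of 1.39, although 358 and 376 in C24h A and C lay below 1184, 1117 and 677 in T24h. In GLB1 the levels of T12h and C12h were 359 ± 57.9 and 398 ± 27.6, and with C24h B kept, at 619, its change at 24 h was 1.14 ± 0.24 with an unadjusted p of 0.00028.

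The genes with the smallest p over all 6 libraries, GLB1 among them, were those in which C24h B did not overlap T24h. LOC110826086 (gene270) had 64.0, 77.0 and 65.1 in C24h A, B and C and 282, 145 and 145 in T24h A, B and C, a log2 change of 1.39 ± 0.26 (SE), so that no control overlapped a treated library. It also rose at 12 h, from 63.9 ± 1.95 to 195 ± 37.3 (adjusted p = 0.00387, limma). LOC110822328 (gene17107) had 318, 83.0 and 240.3 in C24h A, B and C and 35.1, 31.2 and 55.4 in T24h, a log2 change of -2.21 ± 0.41, and it fell at 12 h from 318 ± 87.2 to 37.4 ± 6.52 (adjusted p = 0.00294, limma). LOC110807853 (gene4051) had 48.2, 13.6 and 71.1 in C24h A, B and C and 7.26, 6.04 and 4.61 in T24h, a log2 change of -2.44 ± 0.45, and it fell at 12 h by 1.58 (SE 0.45, adjusted p = 0.0245, limma). LOC110819461 had 272, 174 and 338 in C24h A, B and C and 65.3, 52.3 and 125 in T24h, a log2 change of -1.73 ± 0.31, and was not called at 12 h (adjusted p = 0.198, limma). LOC110818140 had 441, 804 and 358 in C24h A, B and C and 1637, 1561 and 851 in T24h, a log2 change of 1.36 ± 0.29. In none of these 5 genes did a treated library overlap a control, C24h B included, and their adjusted p at 24 h was not below 0.182. LOC110826086 and LOC110822328 kept the 12 h call whichever 12 h library was left out, and LOC110807853 lost it when C12h A, C12h C or T12h C was dropped (adjusted p of 0.0706, 0.0835 and 0.0899).

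**Figure D5:**
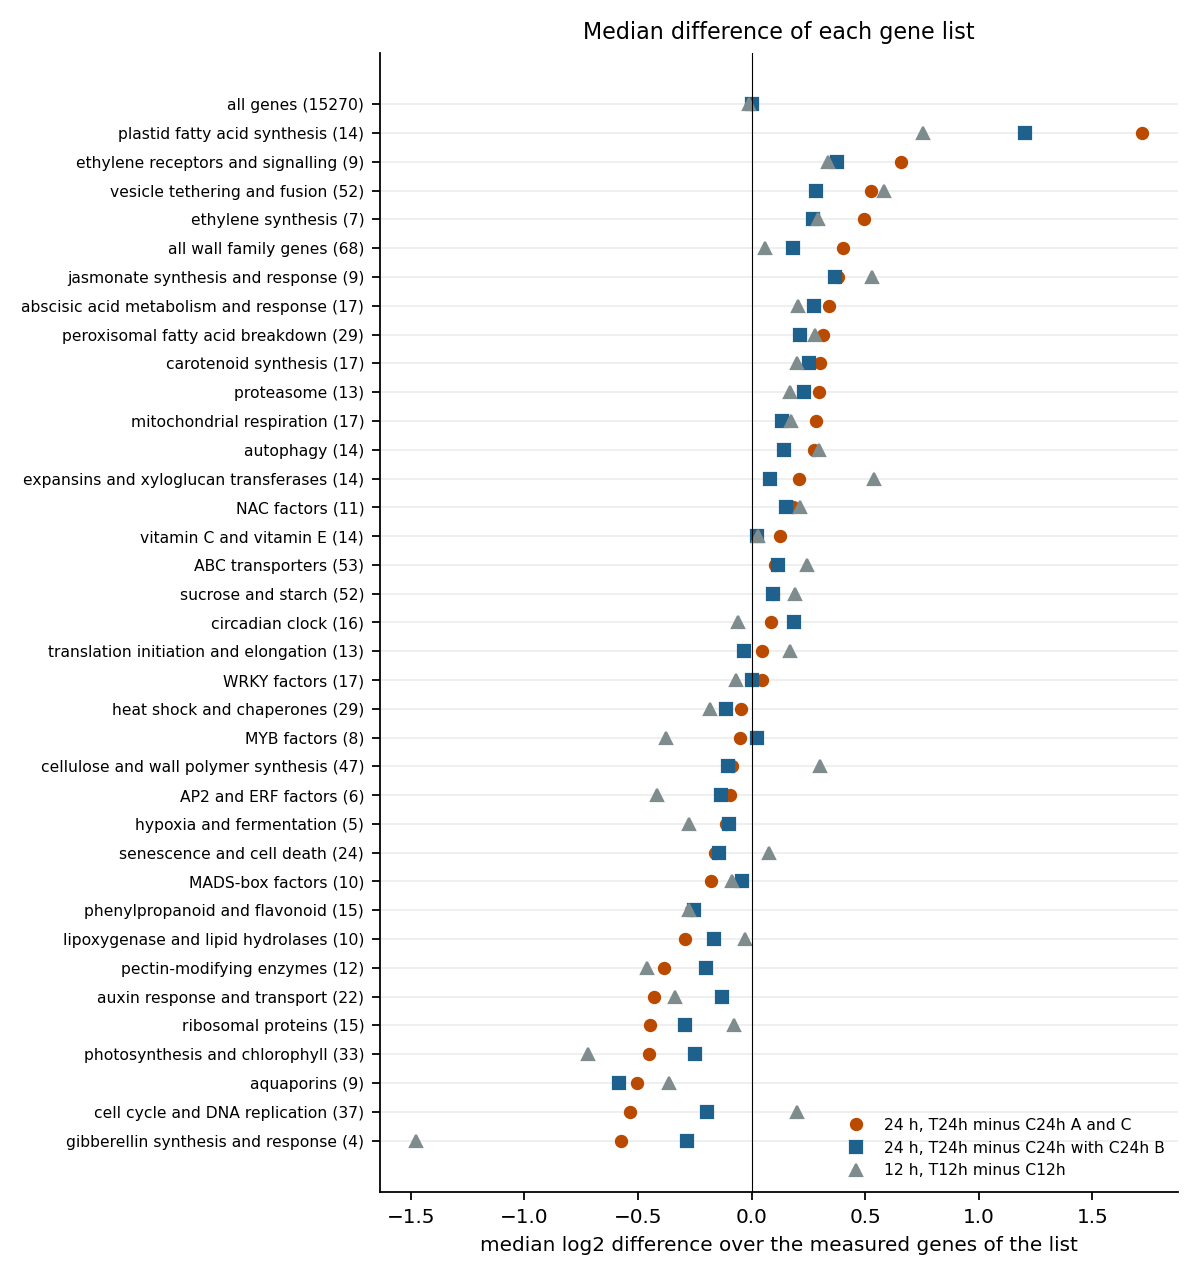
Median log2 difference of each gene list at 24 h without C24h B, at 24 h with all 6 libraries, and at 12 h (horizontal axis, log2 scale; 1 row per list). Plastid fatty acid synthesis lies farthest to the right at 24 h without C24h B, at 1.72, and its median is 1.2 with C24h B kept and 0.75 at 12 h.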

How the data were processed

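RNA-seq was done on 15 pulp libraries. Per the study's methods the authors used SeqyClean 1.10.09 to filter reads and FastQC 0.11.8 for quality, kept reads that STAR 2.6.0a placed uniquely on Papaya1.0, and tested with DESeq2 1.20.1, while the counting tool is not given in the sources used here. The deposited unit is a signal, normalized counts, which are read counts divided by a size factor of each library. Whole reads were recovered from all 15 libraries, since 100% of the values in each were whole multiples, within 2.27e-09, of its smallest value above 0, that of 1 read. This step was 0.994 in T12h B and 1.01 in T24h B, and the count tests were run with and without these libraries. Uniquely aligned reads leave out those shared by near-identical copies, so genes with close neighbours in the numbering are uncertain.

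Values were taken as log2(normalized counts + 1) for genes with a mean of at least 5. limma 3.58.1 (R 4.3.3), with a trend, was fitted to 15 libraries in 5 groups, and p-values were adjusted by Benjamini-Hochberg over 15270 genes. Adjusted p-values come from this fit. With 3 libraries a group, p-values measure the spread between pools. Recovered reads of 15 and of 13 libraries were tested with edgeR 4.0.16 and, as another alternative, with DESeq2 1.42.0, and the scripts were tested on simulated data.

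Harvest letters come from the sample labels. The main fit had no block, and a fit with the harvest as a block was run as an alternative. Deviations from group means had a median correlation of -0.0351 within a harvest (30 pairs of libraries) and -0.0187 between harvests (60 pairs). For C24h and T24h the correlation was -0.0215, -0.350 and -0.195 in harvests A, B and C. With 3 libraries a group, and C24h B among them, these values cannot show that the harvests have no effect. Symbols came from RefSeq (assembly ASM5485532v1), which is not the build of the files and gave names only: 3658 tested genes had a symbol. Gene numbers, wall families and real-time PCR names were paired through the study's own tables, and 8 of the 12 real-time PCR genes were paired.

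The named genes are the 6 widest in each direction, the 8 widest in each direction with a symbol, the 2 widest of each list with at least 3 measured members, the real-time PCR genes, and the 3 in each direction with the smallest p over 6 libraries, described in part. Other members of a described list were added after their values were seen. The members and the lists were chosen with earlier results of these data known. No sequences are shown, and the authors' own comparison columns were not used. A result that the rule would name is not reported here.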

Additional observations from a re-analysis of the deposited data

Results flagged for a closer look

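The pectate lyase gene LOC110819800 (gene14718) moved in opposite directions at the 2 times in every harvest. It had 5.24, 3.02 and 13.9 normalized counts in C24h A, B and C and 0, 2.01 and 1.15 in T24h A, B and C, so every harvest was lower after treatment at 24 h. At 12 h it had 8.05, 7.30 and 6.49 in C12h A, B and C and 8.91, 19.9 and 11.1 in T12h A, B and C, so every harvest was higher. The 24 h effect minus the 12 h effect was -2.67 ± 0.90 (SE) on the log2 scale. In limma the difference between the times had an adjusted p of 0.295, and at these counts a few reads decide the values.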

How the results depend on the processing

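The comparison of T24h with C24h over 6 libraries called 0 genes in limma with a replicate block for the harvest, with TMM or quantile scaling, with another pseudocount or filter, and with edgeR, while library quality weights, whose fit gave a convergence warning, called 4950. Leaving out 1 library at a time gave 0 to 3601 genes, the highest without C24h B and 3 without T24h C. Without C24h B and T24h C together, chosen after seeing the data, there were 2855. DESeq2 called 421 on the recovered reads of 15 libraries, chosen after seeing the data, and 92 on those of 13, without T12h B and T24h B. The 1401 set-apart genes became 177 with C24h B kept, 772 with a mean of at least 50, 2896 with a difference above 1 (chosen after seeing the data), and 1268 to 2188 with 1 library left out, the highest without C24h A. The 3675 genes called at 12 h became 3527 with the replicate block, 6762 with quality weights, and 841 to 3256 with 1 of the 12 h libraries left out, of which 841, 876, 1153 and 1936 were for C12h A, C12h C, T12h C and T12h B. Chosen after seeing the data, leaving out both 12 h libraries of harvest A, B or C gave 310, 1518 or 0, and edgeR gave 3728 on 15 libraries and 1578 on 13. The 623 set-apart genes called in the same direction at 12 h became 622 with the replicate block, 1001 with quality weights, 142 to 570 with 1 of the 12 h libraries left out, 43, 330 or 0 without the 12 h libraries of harvest A, B or C, and 639 and 271 with edgeR on 15 and 13 libraries; the 4 lowest single-library values, 142, 157, 198 and 379, were for C12h C, C12h A, T12h C and T12h B. With C24h B not in the fit, the 12 h counts of 3675 and 623 became 5180 and 918. The difference between the times called 0 genes, 9 with C24h B not in the fit and 60 without C24h B and T24h C. The cause of these moves was not tested. The genes named by rule, without the members added after their values were seen, included 61 called at 12 h. Of these, 9 kept the call with each 12 h library left out in turn, and the harvest block ended 1 call, COL2. The added genes LOC110814146 and LOC110825606, which also kept it, are not in this count. Leaving out both 12 h libraries of harvest A, B or C ended 57, 33 or 61 of the 61 calls. On recovered reads edgeR ended 6 on 15 libraries and 36 on 13, and DESeq2 ended 1 of the 60 and 5 of the 46 for which it gave an adjusted p. The medians of the MYB factors and the translation factors at 24 h changed sign with C24h B kept, from -0.05 to 0.03 and from 0.05 to -0.03.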

Other observations

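The 3 set-apart genes that went the opposite way at 12 h were chosen after their values were seen, and none has a name in the table. LOC110821627 (gene16434) had 70.3, 128 and 45.1 normalized counts in C24h A, B and C and 363, 587 and 130.3 in T24h A, B and C, so each treated library lay above every control, C24h B included. At 12 h it had 91.2, 109 and 56.0 in C12h and 30.1, 14.9 and 31.1 in T12h, and it fell by 1.73 on the log2 scale (SE 0.52, adjusted p = 0.0291, limma). LOC110806623 (gene2975) had 7.34, 7.54 and 9.54 in C24h A, B and C and 1.21, 2.01 and 1.15 in T24h, while at 12 h it rose by 1.48 ± 0.46 (adjusted p = 0.0331, limma). LOC110823940 (gene18772) had 18.9, 13.6 and 34.7 in C24h A, B and C and 4.84, 6.04 and 18.5 in T24h, with T24h C above C24h B, and it rose by 1.42 ± 0.47 at 12 h (adjusted p = 0.0428, limma). All 3 lost the 12 h call without C12h A, B or C or without T12h B or C, and LOC110806623 also without T12h A, with adjusted p up to 0.1315. In limma the difference between the effects at 24 h and at 12 h was not called for any of them after adjustment over all genes.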
